A study of Mus musculus with 6 samples.

Results

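The BCL2 family decides whether a cell keeps its mitochondria intact or starts to die, and 10 of its genes were followed here in mouse LT-HSCs (long-term haematopoietic stem cells), from which all blood lineages can be rebuilt for life. The genes were chosen by name: the pro-survival genes Bcl2, Bcl2l1 and Mcl1, the effectors Bax and Bak1, and the BH3-only genes Bcl2l11, Bid, Bad, Bbc3 and Pmaip1. All 10 had a row in the deposited table of 21761 genes. The cells were of donor origin, sorted from transplanted mice with or without renewed expression of the RNA-binding protein IMP1 (gene Igf2bp1), which is otherwise made mainly in the fetus. The IMP1 group had the genotype Rosa26 I/+;Mx1-Cre tg/+, in which Cre turns on an IMP1 allele placed in Rosa26, and the Control group was Rosa26 +/+;Mx1-Cre tg/+. Each group had 3 libraries, described as biological replicates.

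Both groups carried the Mx1-Cre transgene, whose interferon-responsive promoter is active in blood cells and in other tissues, and in both groups marrow of the CD45.2 allotype had been transplanted into lethally irradiated CD45.1/2 hosts. Both groups were also described as given poly(I-C), an RNA mimic of viral infection that induces interferon and through it Cre. For each library, 200 cells with the phenotype CD45.2+ LSK CD150+ CD48- CD34- were sorted 8 weeks after the last injection, which makes each library an average over a small pool of cells. No age of the mice was given.

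In the mitochondrial pathway of apoptosis, Bax and Bak1 proteins assemble into pores in the outer mitochondrial membrane and let cytochrome c out, which activates caspases. The proteins of Bcl2, Bcl2l1 (BCL-XL) and Mcl1 hold the effectors in check, and BH3-only proteins, made or switched on after stress or loss of growth factors, bind the pro-survival proteins through a short helix called BH3 or engage the effectors themselves. Haematopoietic stem cells are known to depend on Mcl1, while Bcl2l1 is known for keeping late red-cell precursors and platelets alive and Bcl2 for keeping mature lymphocytes alive. Much of the family's control acts on the proteins, which RNA counts do not measure.

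What joins these genes is the BH3 core, so its coding sequence is shown for the members before their RNA levels. The core was searched in the longest coding sequence of each member (GENCODE M21, mouse build GRCm38) as a leucine codon, 2 codons of any kind, a codon for alanine, valine, isoleucine or methionine, a codon for glycine, alanine or serine, an aspartate codon and a codon for aspartate, glutamate, glycine or serine. This pattern was written with known BH3 cores in mind. It occurred once in each of 9 members and did not occur in Pmaip1, and it occurred in 542 of 20828 mouse coding genes searched, or 2.60%. The pattern misses any core with other residues at these positions, so the miss does not show that Pmaip1 lacks a core. The 9 codons from the leucine on are printed 5′ to 3′ on the coding strand, with the leucine codon and the pair that ends in the aspartate codon in capitals.
Bcl2: CTCcgccgggctGGGGATgacttctct
Bcl2l1: CTGagagaggcaGGCGATgagtttgaa
Mcl1: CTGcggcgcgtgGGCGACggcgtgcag
Bax: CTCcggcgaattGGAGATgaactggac
Bak1: CTTgctctcatcGGAGATgatattaac
Bcl2l11: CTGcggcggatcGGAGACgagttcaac
Bid: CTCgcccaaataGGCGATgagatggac
Bad: CTCcgaaggatgAGCGATgagtttgag
Bbc3: CTGcggcggatgGCGGACgacctcaac

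The first triplet of the capital pair was a glycine codon in 7 of these 9 genes, a serine codon in Bad and an alanine codon in Bbc3. The aspartate was written GAT in 6 genes and GAC in 3. Of the 27 bases, 22 were identical between Bcl2l11 and Bbc3, the closest pair, and 11 between Bcl2 and Bak1, the most distant. The cores of the pro-survival genes lay in coding exons at chr1:106712575-106712601 (Bcl2, minus strand, exon 1 of 2), chr2:152829697-152829723 (Bcl2l1, minus strand, exon 2 of 3) and chr3:95659436-95659462 (Mcl1, plus strand, exon 1 of 3). Those of the effectors lay at chr7:45465997-45466023 (Bax, minus strand, exon 3 of 6) and chr17:27022531-27022557 (Bak1, minus strand, exon 4 of 6). Those of the BH3-only genes lay at chr2:128147150-128147176 (Bcl2l11, plus strand, exon 3 of 4), chr6:120897289-120897315 (Bid, minus strand, exon 4 of 6), chr19:6950792-6950818 (Bad, plus strand, exon 3 of 4) and chr7:16313773-16313799 (Bbc3, plus strand, exon 3 of 4). These positions are on GRCm38, whereas the build named for the deposited counts was mm9.

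Control libraries held 25749898 to 27338450 counts and IMP1 libraries 50220629 to 67083116, so depth differed with genotype, and the labels gave no batch by which the 2 could be separated. Igf2bp1, the check of the labels, had 0, 0 and 1 counts in Control and 1870, 2084 and 2016 in IMP1 libraries. All 11 LT-HSC markers on a list of marker genes were detected in all 6 libraries, with a summed level of 1632 to 1837 CPM (counts scaled to library size, with TMM factors) in Control and 2142 to 2356 CPM in IMP1 libraries. Cd34, whose protein was gated out, was at 263 to 317 CPM in Control and 141 to 213 CPM in IMP1 libraries, so its RNA was not absent. Pax5 and Cd3g had 0 counts in all 6 libraries, though other genes of their B-cell and T-cell lists were detected. T-cell markers (6 genes) summed to 10.9 to 31.1 CPM in Control and 16.9 to 28.5 CPM in IMP1 libraries. Of these, Lck had 237 to 1160 counts per library. IMP1 1 stood apart by some red-cell transcripts, with 1555 counts of Rhd where the Control libraries had 0, though not by Epor. Early B-lineage transcripts marked IMP1 2, with 986 counts of Ebf1 and 1170 of Cd79a where the Control libraries had at most 1. Granulocyte and monocyte markers (8 genes) summed to 670 CPM in IMP1 1 and 295 CPM in IMP1 2, against 23.0 CPM in IMP1 3 and 21.5 to 48.4 CPM in Control. S100a8, S100a9, Ngp and Camp carried the IMP1 sums, while Mpo had 673, 187 and 9 counts in Control and 2, 0 and 0 in IMP1 libraries, and Csf1r had 0 counts in all IMP1 libraries. Mast cell and basophil markers (4 genes) summed to 36 to 44.9 CPM in Control and 2.45 to 14.7 CPM in IMP1 libraries. Multipotent progenitor markers (Flt3 and Dntt) summed to 7.95 to 13.3 and 24.5 to 30.0 CPM, with no overlap in either sum. Flt3 and Dntt each overlapped when taken singly. Flt3 was at 12.7, 7.95 and 10.8 CPM in Control and 30.0, 6.44 and 19.8 CPM in IMP1 libraries. Dntt was at 0.639, 0 and 0 CPM in Control and 0.0157, 22.3 and 4.68 CPM in IMP1 libraries. The part of any of these cell types in the values of the family was not tested. In such bulk samples, fewer cells of a type and less RNA per cell cannot be told apart.

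The comparison asked whether survival and death genes of the family differed between LT-HSCs with and without IMP1. None of the 9 tested members passed edgeR's quasi-likelihood test at an adjusted p under 0.05 (0 of 9), where 0.211% of all 12807 tested genes passed, 0.0703% with higher and 0.141% with lower values in IMP1 cells. At an unadjusted p under 0.05, 2 of the 9 stood out, Mcl1 with a positive and Bad with a negative change, where the share over all tested genes was 14.3%. Mcl1 alone was past that level with the replicate number as a block, after removal of the length and GC trend, without TMM, among genes with a CPM of at least 1 in all libraries, and without Control 2, Control 3, IMP1 1 or IMP1 3. Bad alone was past it without Control 1. Without IMP1 2 neither was past it, and Bcl2 was. DESeq2 and limma-voom also called 0 of the 9. DESeq2 called 5.42% of the same 12807 genes. The groups did not overlap for Mcl1 (IMP1 above Control) nor for Bak1 and Bad (IMP1 below Control), where 21.9% of tested genes had groups that did not overlap. Pmaip1 did not pass the filter on low counts and was not tested. The median log2 fold change was −0.34 over the 9 members and 0.03 over all tested genes, with 3 members positive and 6 negative. This median hung on single libraries. Without IMP1 3 it was 0.00618 with 6 of the 9 positive, and without IMP1 1 it was −0.28 with 1 positive. After removal of the length and GC trend it was −0.25 with 3 positive.

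**Figure D1:**
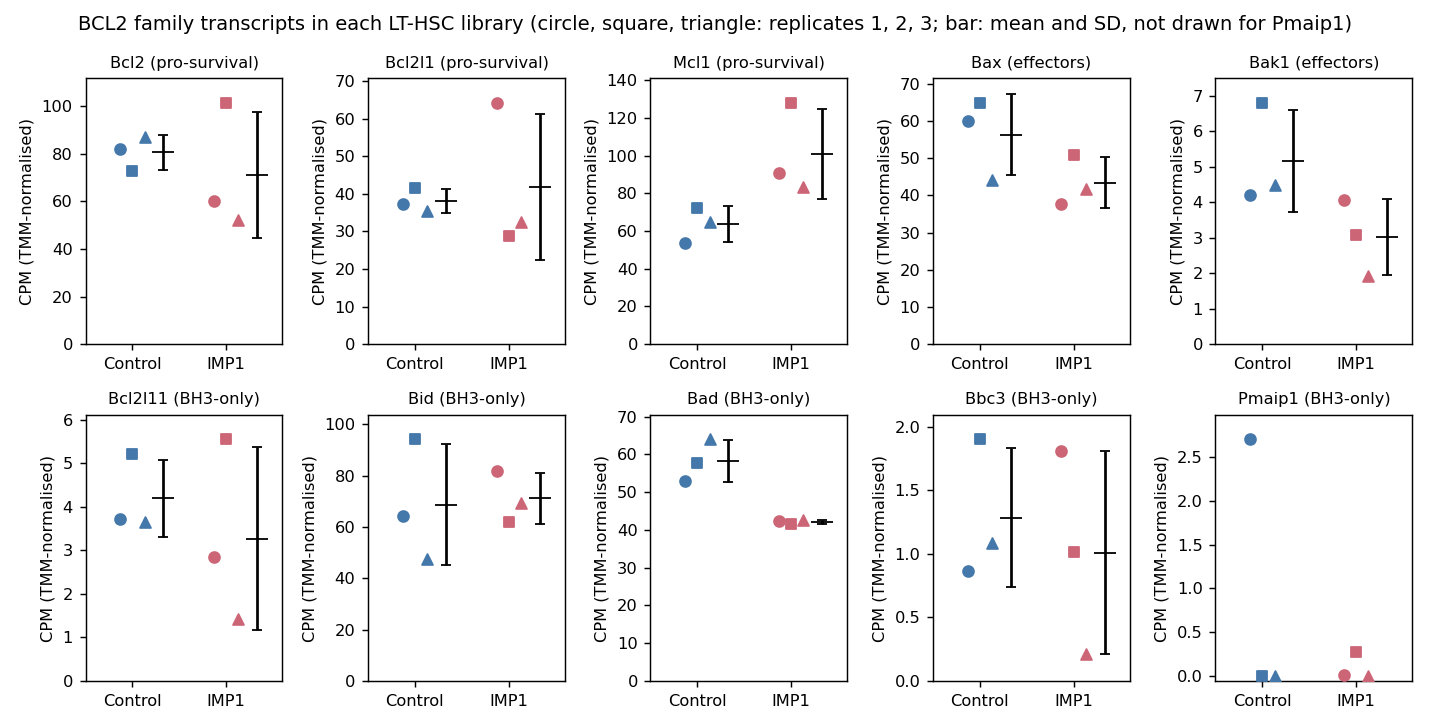
TMM-normalised CPM (y axes, each from 0) of the 10 BCL2 family genes in 3 Control and 3 IMP1 libraries; symbols mark replicates and bars the mean with SD over 3 libraries, left out for Pmaip1. The IMP1 points lie above the Control points for Mcl1 and below them for Bak1 and Bad, while single IMP1 libraries lead for Bcl2l1 (64.3 CPM) and Bcl2 (101 CPM).

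Among the pro-survival genes, Mcl1 encodes a short-lived protein whose supply depends on steady RNA and protein synthesis. Control libraries had 53.7, 72.4 and 65.0 CPM of it, and IMP1 libraries had 91.0, 128 and 83.6 CPM. Each IMP1 library lay above each Control library, though 10.7% of tested genes did the same. The means were 63.7 ± 9.43 and 101 ± 23.8 CPM (SD, n = 3), a ratio of 1.58. The log2 fold change was 0.66 (SE 0.22, 95% interval 0.17 to 1.16), with an unadjusted p of 0.0147 and an adjusted p of 0.229, so the difference did not pass over all genes. Its size held between 0.45 and 0.78 over 16 other settings, with adjusted p from 0.0674 with DESeq2 to 0.436 without IMP1 2, and it was 0.69 once a trend on transcript length and GC content had been taken out. IMP1 3 had a summed granulocyte and monocyte marker level within the Control range, and an Mcl1 level above the highest Control value. The part of granulocyte and monocyte RNA in the Mcl1 values was not tested.

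Bcl2, the founding member of the family, was at 81.8, 72.7 and 87.1 CPM in Control and 60.0, 101 and 51.9 CPM in IMP1 libraries. IMP1 2 was above and the other IMP1 libraries below all Control libraries, so the groups overlapped. The means of 80.5 ± 7.29 and 71.1 ± 26.5 CPM gave a log2 fold change of −0.18 (SE 0.26, 95% interval −0.78 to 0.43, adjusted p = 0.818). Without IMP1 2, which also carried the Ebf1 and Cd79a counts, the log2 fold change was −0.52 (unadjusted p = 0.0313, adjusted p = 0.350), and without IMP1 3 it was 0.01. The summed level of 5 B-cell markers, which rests mainly on Cd79b, was 112 CPM in IMP1 2, 105 CPM in IMP1 3 and 78.1 CPM in IMP1 1, against 69.2 to 85.5 CPM in Control. The part of B-lineage RNA in the Bcl2 values was not tested.

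Bcl2l1 was even across the Control libraries at 37.3, 41.6 and 35.4 CPM and uneven across the IMP1 libraries at 64.3, 28.9 and 32.5 CPM. IMP1 1 was above and the other IMP1 libraries were below all Control libraries. The coefficient of variation was 8.28% in Control and 46.5% in IMP1 libraries. The means of 38.1 ± 3.15 and 41.9 ± 19.5 CPM gave a log2 fold change of 0.14 (SE 0.33, 95% interval −0.62 to 0.89, adjusted p = 0.895). Leaving out IMP1 1 turned it to −0.31 (adjusted p = 0.673). The erythroid markers in the table (6 genes) summed to 305 CPM in IMP1 1, 69.6 CPM in IMP1 2 and 85.5 CPM in IMP1 3, against 35.3 to 42.8 CPM in Control. Hbb-b1, a beta-globin gene and 1 of the 6, was called higher in IMP1 cells (16.9 ± 2.99 and 62.6 ± 12.6 CPM, adjusted p = 0.0448). Bcl2l1 thus had its top value in the library with the top erythroid sum, which also had the top granulocyte and monocyte sum (670 CPM). Megakaryocyte and platelet markers (5 genes) summed to 662, 328 and 386 CPM in Control and 441, 266 and 231 CPM in IMP1 libraries. How much RNA of red cells, platelets or granulocytes entered the Bcl2l1 values was not tested.

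Bcl2l1 lies over Cox4i2, which encodes a lung-type subunit of cytochrome c oxidase, in the RefSeq table of GRCm38.p6, and reads of both cannot be told apart by strand since the strand setting was not given. Cox4i2 had 28, 22 and 29 counts in Control and 582, 841 and 575 in IMP1 libraries, or 1.03 ± 0.147 and 10.8 ± 1.52 CPM (log2 fold change 3.39, SE 0.55, adjusted p = 0.0614). It did not pass the threshold. The part of Cox4i2 reads in the Bcl2l1 values was not tested. Cox4i2 is no member of the family and was looked at because of this overlap.

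**Figure D2:**
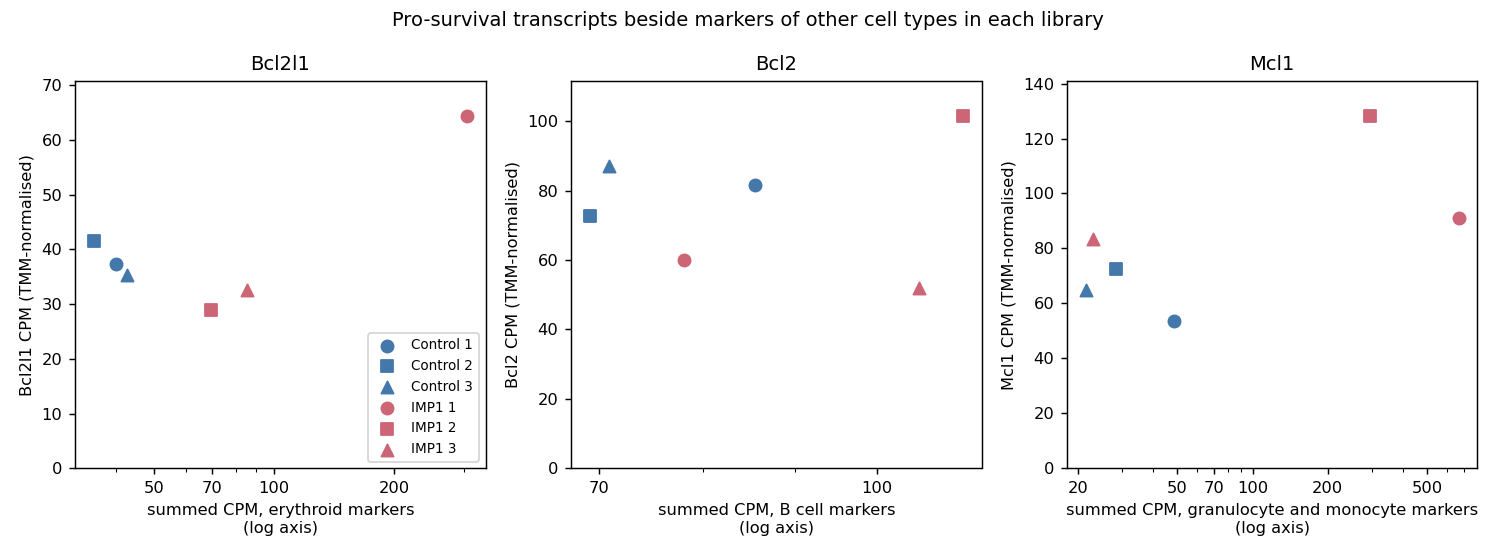
CPM of Bcl2l1, Bcl2 and Mcl1 (y axes, from 0) against the summed CPM of erythroid, B-cell, and granulocyte and monocyte markers (x axes, log scale), 1 point per library. IMP1 1 holds the top erythroid sum (305 CPM) with the top Bcl2l1 level (64.3 CPM), IMP1 2 the top B-cell sum (112 CPM) with the top Bcl2 level (101 CPM), and IMP1 3 a granulocyte and monocyte sum (23.0 CPM) in the Control range with an Mcl1 level of 83.6 CPM.

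Among the effectors, Bax, which waits in the cytosol and moves to mitochondria when activated, was at 60.0, 64.9 and 44.1 CPM in Control and 37.8, 50.9 and 41.6 CPM in IMP1 libraries. The groups overlapped between 44.1 and 50.9 CPM. The means of 56.3 ± 10.9 and 43.4 ± 6.77 CPM gave a log2 fold change of −0.37 (SE 0.23, 95% interval −0.91 to 0.16, adjusted p = 0.520). It was −0.25 after removal of the length and GC trend. Its longest transcript, of 1100 bases, is the shortest among the members.

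Bak1, the effector that sits in the mitochondrial membrane, was far less abundant, with 112, 172 and 112 counts in Control and 258, 214 and 100 counts in IMP1 libraries. These were 4.21, 6.81 and 4.48 CPM against 4.05, 3.09 and 1.93 CPM. The groups did not overlap, by the narrow gap between 4.05 and 4.21 CPM, where 11.1% of tested genes had IMP1 libraries below all Control libraries. The log2 fold change of −0.77 had an SE of 0.64 and a 95% interval of −2.24 to 0.70 (adjusted p = 0.644). Leaving out single libraries moved it between −1.04 and −0.52.

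Of the BH3-only genes, Bad, whose protein is kept inactive by growth-factor kinases and 14-3-3 proteins, was at 52.9, 57.8 and 64.0 CPM in Control and 42.2, 41.5 and 42.5 CPM in IMP1 libraries. All 3 IMP1 libraries lay below all Control libraries, with a coefficient of variation of 1.25%. The means were 58.2 ± 5.57 and 42.1 ± 0.524 CPM, a ratio of 0.722. The log2 fold change was −0.47 (SE 0.19, 95% interval −0.90 to −0.04), with an unadjusted p of 0.0351 and an adjusted p of 0.306. After removal of the length and GC trend it was −0.25 (unadjusted p = 0.204, adjusted p = 0.651). Bad lies over Gpr137, which had 124, 235 and 386 counts in Control and 235, 486 and 281 in IMP1 libraries, fewer than Bad in each.

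Bid, which links death receptors to mitochondria after cleavage by caspase-8, was at 64.1, 94.1 and 47.7 CPM in Control and 81.9, 62.0 and 69.3 CPM in IMP1 libraries. Here the Control libraries were the more spread, and the IMP1 libraries all fell inside their range. The log2 fold change was 0.05 (SE 0.26, 95% interval −0.56 to 0.66, adjusted p = 0.952), and it was −0.16 without Control 3 and −0.06 without IMP1 1.

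Bcl2l11, which encodes BIM, the BH3-only protein released on loss of cytokines, had 99, 132 and 91 counts in Control and 181, 385 and 74 in IMP1 libraries. These were 3.72, 5.22 and 3.64 CPM against 2.84, 5.56 and 1.43 CPM. IMP1 2 held the top value and IMP1 3 the lowest, so the groups overlapped (log2 fold change −0.36, SE 0.72, 95% interval −2.02 to 1.31, adjusted p = 0.875). Without IMP1 3 the log2 fold change was 0.00154.

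Bbc3 and Pmaip1, which encode PUMA and NOXA and are well-known p53 targets, were near the limit of detection. Bbc3 had 23, 48 and 27 counts in Control and 115, 70 and 11 in IMP1 libraries, or 0.864, 1.90 and 1.08 CPM against 1.81, 1.01 and 0.212 CPM. Its log2 fold change of −0.34 had an SE of 0.98 and a 95% interval of −2.59 to 1.90 (adjusted p = 0.914). The interval thus includes differences of several fold in either direction. Pmaip1 had 72, 0 and 0 counts in Control and 1, 19 and 0 in IMP1 libraries. All but 20 of its 92 counts came from Control 1. A count of 0 allows up to 0.119 CPM in Control 2, 0.120 CPM in Control 3 and 0.0578 CPM in IMP1 3, taking 3 counts as the limit, and this covers counting error only.

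**Figure D3:**
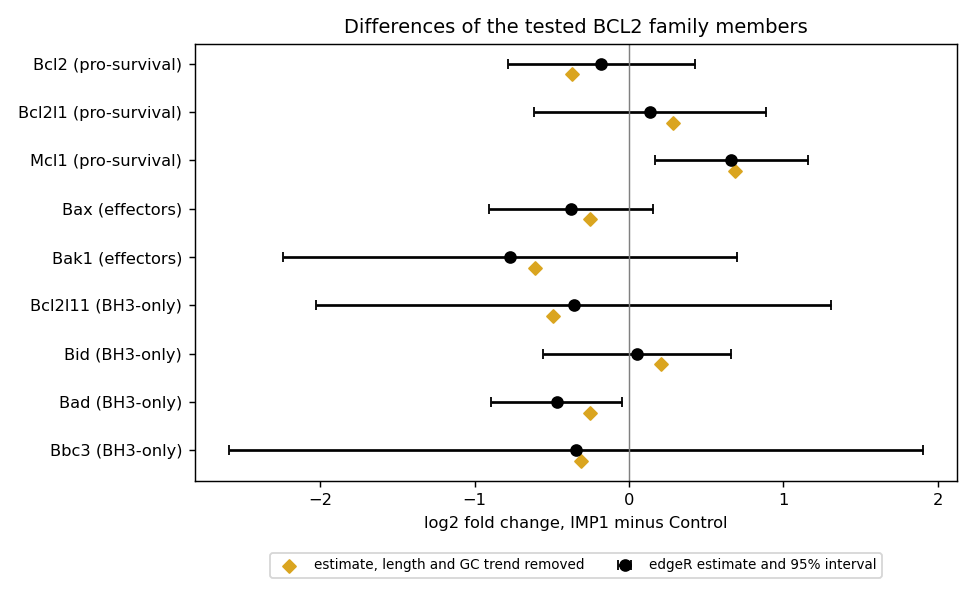
Log2 fold changes (x axis, IMP1 minus Control) of the 9 tested members; black points and bars are edgeR estimates with 95% intervals and diamonds those after removal of the length and GC trend. The intervals of Mcl1 (0.17 to 1.16) and Bad (−0.90 to −0.04) lie on 1 side of 0 before adjustment for 12807 tests, and those of the other 7 span 0.

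To set the members beside each other, CPM were divided by the length in kilobases of the longest annotated transcript. In Control cells the order of mean levels in CPM per kilobase was Bax (51.2 ± 9.91), Bad (38.0 ± 3.63), Bid (28.4 ± 9.75), Mcl1 (18.6 ± 2.76), Bcl2l1 (14.8 ± 1.23), Bcl2 (11.2 ± 1.01), Bak1 (2.16 ± 0.598), Bcl2l11 (0.833 ± 0.177), Bbc3 (0.706 ± 0.301) and Pmaip1, at 0.992 in Control 1 and 0 in the other Control libraries. Neighbours from Bax to Bcl2l1 had overlapping library values, as did Bcl2l11 and Bbc3. The steps from Bcl2l1 to Bcl2, from Bcl2 to Bak1 and from Bak1 to Bcl2l11 were clear of overlap. In IMP1 cells Mcl1 (29.5 ± 6.98 CPM per kilobase) came next after Bax (39.5 ± 6.15), ahead of Bid (29.4 ± 4.17) and Bad (27.4 ± 0.342), and each of these overlapped its neighbour in the order, though Bax did not overlap Bid or Bad. Bcl2l1 (16.3 ± 7.59) and Bcl2 (9.89 ± 3.69) followed with overlapping values, then Bak1 (1.27 ± 0.445), Bcl2l11 (0.650 ± 0.417) and Bbc3 (0.556 ± 0.439). The order depended on the length used. Per kilobase of coding length, mean Control levels ran from Bid (117) over Bcl2 (114), Bax (97.8) and Bad (95.1) to Mcl1 (64.2) and Bcl2l1 (54.5), and all Control values of Bcl2 lay above all those of Bcl2l1. In IMP1 cells on that scale Bid (122) was followed by Mcl1 (102), Bcl2 (100.5) and Bax (75.4).

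As a share of the summed CPM per kilobase of the 10 genes, the pro-survival genes made up 25.8%, 25.2% and 30.0% in Control and 37.7%, 38.1% and 31.7% in IMP1 libraries. All IMP1 libraries were above all Control libraries in this share. The effectors, nearly all Bax, made up 34.9%, 32.9% and 28.0% in Control and 22.7%, 28.9% and 27.6% in IMP1 libraries, and the BH3-only genes 39.2%, 41.9% and 42.0% against 39.6%, 33% and 40.6%. Mcl1 alone went from 9.75%, 11.3% and 12.7% to 16.7%, 22.7% and 17.5%. These shares are descriptions without a test or a background over other genes, and they depend on the length used. Per kilobase of coding length, which leaves out the long untranslated part of Bcl2, the pro-survival share was 40.8%, 37.5% and 46.3% in Control and 48.1%, 52.9% and 43.4% in IMP1 libraries, with overlap between the groups.

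Ratios between members do not depend on how libraries are scaled. The ratio of Mcl1 to Bcl2 CPM was 0.657, 0.997 and 0.747 in Control and 1.52, 1.26 and 1.61 in IMP1 libraries. The ratio of Mcl1 to Bax was 0.895, 1.12 and 1.48 against 2.41, 2.52 and 2.01. In both, each IMP1 library exceeded each Control library, and these were the 2 of 6 ratios computed whose groups did not overlap. Both have Mcl1 on top, which did not overlap by itself. No share over ratios of other genes was computed to set beside them. The ratio of Mcl1 to Bcl2l1 was 1.44, 1.74 and 1.84 against 1.42, 4.44 and 2.57, with overlap. The ratio of Bcl2 to Bax, a common index of the balance of survival and death, was 1.36, 1.12 and 1.98 against 1.59, 1.99 and 1.25, with overlap. The ratio of Bcl2l1 to Bax also overlapped, at 0.622, 0.640 and 0.803 against 1.70, 0.567 and 0.781.

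**Figure D4:**
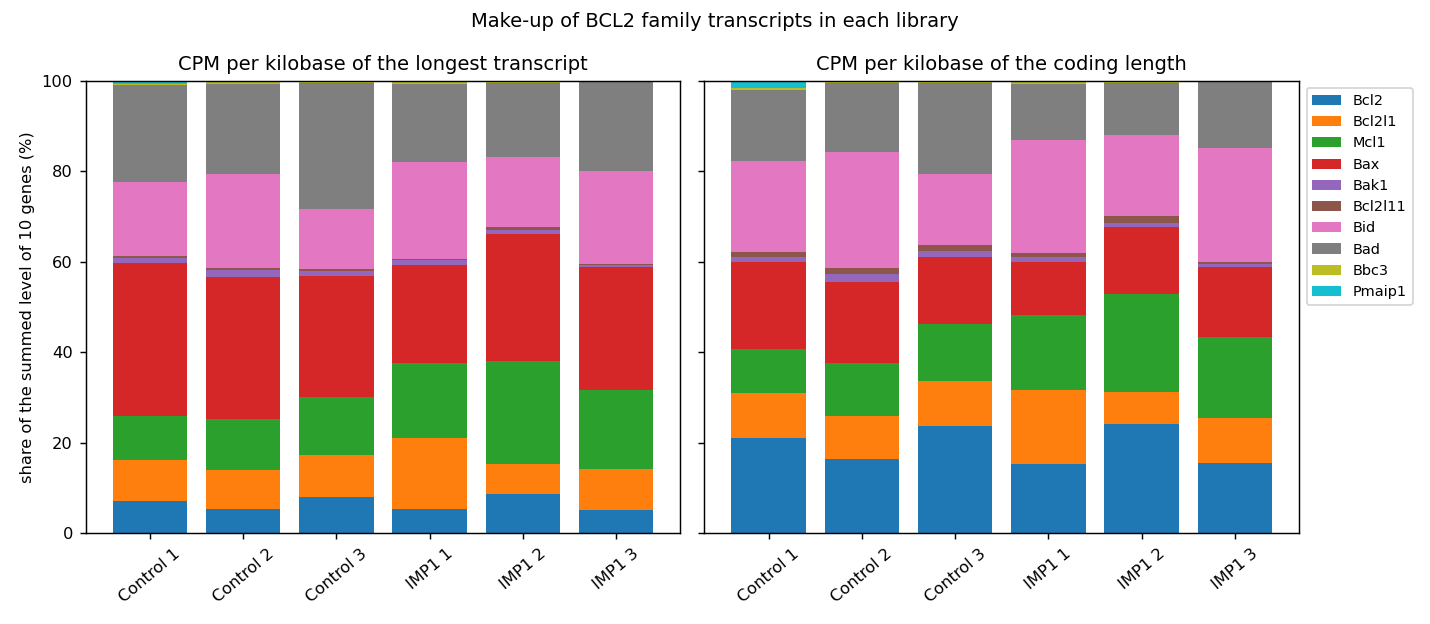
Share of each of the 10 genes (stacked bars, y axis in percent) in the summed CPM per kilobase of a library, by longest transcript (left) and by coding length (right). On the left the pro-survival genes at the bottom reach 25.2% to 30.0% in Control and 31.7% to 38.1% in IMP1 libraries, and on the right the groups overlap.

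The genes around the family were read from 9 lists with 75 genes, of which 72 were tested. None of these passed edgeR's test at an adjusted p under 0.05 (0 of 72). At an unadjusted p under 0.05, 4 were positive and 8 negative, and over all tested genes the shares were 6.67% and 7.63%. Groups did not overlap for 2 of the 72 with IMP1 above Control and for 11 with IMP1 below it. Over all tested genes these shares were 10.7% and 11.1%, so a lack of overlap in a single gene named below was common. DESeq2 called 6 of the 72, namely Usp9x, Trp53, Pim2, Vdac3, Bnip3l and Cycs, beside its 5.42% over all genes. Of these 6, Usp9x alone was higher in IMP1 cells. Among genes with a CPM of at least 1 in all libraries, edgeR called Usp9x (adjusted p = 0.0418) and 1.40% of all genes.

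The other pro-survival relatives were scarce. Bcl2l2, which encodes BCL-W, was at 13.1 ± 3.59 and 15.3 ± 10.9 CPM (adjusted p = 0.899). Bcl2a1a, Bcl2a1b and Bcl2a1d are so alike in sequence that their reads are uncertain. Bcl2a1b averaged 0.760 CPM in Control against 0.789 CPM in IMP1 cells, with 56 of the 57 Control counts in Control 3. Bcl2a1d had 0, 0 and 20 counts in Control and 22, 29 and 23 in IMP1 libraries (adjusted p = 0.909). Bcl2l10 had 0 counts in all libraries. The 4 genes Bok, Bmf, Hrk and Bik, further effector and BH3-only relatives, had at most 3.66 CPM in any library and no adjusted p under 0.719. Their median log2 fold change of 1.24 rests on counts that reach 0 in single libraries for Bok, Bmf and Bik.

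Of 8 tested BCL2-like and BNIP genes, 6 were negative with a median of −0.30, and the untested Bcl2l15 had at most 111 counts in any library. Bnip3l, which encodes the mitophagy receptor NIX, was at 429 ± 22 and 335 ± 26.6 CPM (log2 fold change −0.36, SE 0.10, adjusted p = 0.172, and 0.0381 with DESeq2), and its relative Bnip3 at 132 ± 24.9 and 107 ± 9.32 CPM (adjusted p = 0.488). Becn1, an autophagy gene with a BH3 region, was at 68.4 ± 10.3 and 49.8 ± 9.43 CPM (adjusted p = 0.403).

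Downstream of the pore, 10 of 11 genes for the apoptosome, caspases and released mitochondrial proteins were negative, with a median of −0.33 and of −0.34 after removal of the length and GC trend. Cycs, which encodes cytochrome c, was at 527, 453 and 500 CPM in Control and 441, 319 and 314 CPM in IMP1 libraries. All IMP1 values lay below all Control values (log2 fold change −0.46, SE 0.15, adjusted p = 0.222, and 0.0382 with DESeq2). Casp2, an initiator caspase gene, was at 141 ± 13.8 and 115 ± 10.1 CPM (adjusted p = 0.40). The apoptosome scaffold gene Apaf1 was at 21.6 ± 5.72 and 20.9 ± 5.4 CPM (adjusted p = 0.967).

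The 5 inhibitor of apoptosis genes were all positive, with a median of 0.68, and of 0.65 after the trend correction, which took Birc6 from 0.30 to 0.07 and Xiap from 0.56 to 0.27. Birc5, which encodes survivin, a protein of dividing cells, was at 24.9, 24.4 and 35.3 CPM in Control and 58.2, 35.5 and 56.7 CPM in IMP1 libraries. The groups were separate by 35.3 against 35.5 CPM (log2 fold change 0.83, SE 0.28, adjusted p = 0.246). Birc2, which encodes cIAP1, was at 93.2 ± 33.7 and 149 ± 34.8 CPM (0.68, SE 0.28, adjusted p = 0.317) and the giant Birc6 at 251 ± 51.2 and 309 ± 30.8 CPM (adjusted p = 0.453). None of the 5 passed.

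Death receptor genes were split, with 4 of 9 positive and a median of −0.08. Cflar, the inhibitor of caspase-8 known as c-FLIP, was at 180 ± 15.1 and 192 ± 14.2 CPM, and Casp8 at 174 ± 16.1 and 164 ± 40.4 CPM (adjusted p = 0.804 and 0.893). The adaptor gene Tradd was at 35.5 ± 9.60 and 23.2 ± 3.85 CPM (adjusted p = 0.40), and Tnfrsf1b, a tumour necrosis factor receptor gene, at 28.6 ± 3.42 and 41.7 ± 10.8 CPM (adjusted p = 0.423).

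All 4 outer-membrane partner genes were negative, with a median of −0.42 that became −0.35 with 1 gene positive once the length and GC trend was removed. Vdac3, a channel gene, was at 573 ± 75.6 and 417 ± 59.8 CPM (log2 fold change −0.46, SE 0.14, adjusted p = 0.207, and 0.0299 with DESeq2). Mtch2, which encodes the mitochondrial docking site of cleaved BID, was at 229 ± 5.71 and 170 ± 25.1 CPM (−0.43, SE 0.13, adjusted p = 0.218). Vdac2, whose protein binds BAK, was at 338 ± 29.4 and 333 ± 17.3 CPM (−0.02, SE 0.11, 95% interval −0.27 to 0.22).

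Of 9 tested transcription factor genes that act on the family, 7 were negative with a median of −0.09. Trp53, which encodes p53, was at 557, 482 and 519 CPM in Control and 396, 372 and 424 CPM in IMP1 libraries, with no overlap (log2 fold change −0.39, SE 0.10, adjusted p = 0.137, and 0.0174 with DESeq2). After removal of the length and GC trend it was −0.29 (adjusted p = 0.309). Myb was at 247 ± 42.4 and 337 ± 55.9 CPM (0.45, SE 0.17, adjusted p = 0.284). Trp73 had at most 6 counts in any library.

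Among 18 genes for proteins that control family members after translation, 6 were positive and 12 negative. Usp9x, which encodes a deubiquitinase that stabilises MCL1, was at 135, 151 and 112 CPM in Control and 200 to 228 CPM in the IMP1 libraries, all above Control. Its means of 133 ± 19.4 and 216 ± 14.5 CPM gave a log2 fold change of 0.70 (SE 0.14, adjusted p = 0.0857, and 0.000795 with DESeq2), and 0.43 (adjusted p = 0.279) after removal of the length and GC trend. Pim2, which encodes a kinase that phosphorylates BAD, was at 112 ± 6.97 and 75.5 ± 4.96 CPM (−0.57, SE 0.14, adjusted p = 0.134), and its log2 fold change was −0.36 after removal of the same trend. The abundant 14-3-3 genes Ywhaz (2121 against 2069 CPM) and Ywhae (1131 against 1100 CPM) had log2 fold changes of −0.04 each.

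**Figure D5:**
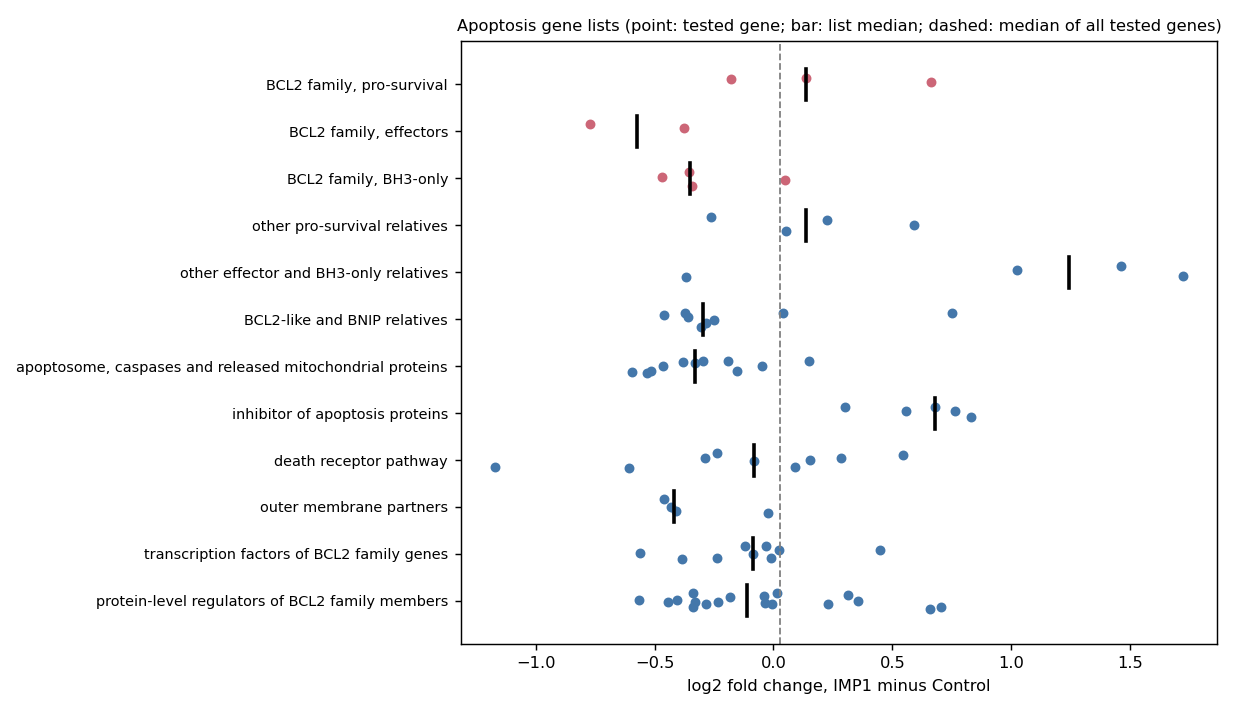
Log2 fold changes (x axis, IMP1 minus Control) of tested genes in the 3 roles of the BCL2 family (red) and 9 lists of related genes (blue); bars are list medians and the dashed line is the median of all tested genes, 0.03. The 5 inhibitor of apoptosis genes lie to the right of 0 and 10 of 11 apoptosome, caspase and released-protein genes to the left, with no gene past the threshold.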

How the data were processed

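RNA of 200 sorted cells per library was prepared with the SMARTer Ultra Low RNA kit, per the labels' protocols, which mention no molecular identifiers. The deposited table holds unnormalised read counts by Entrez identifier, with a column for each library, per the file headers. The submitters' processing notes name TopHat2 2.0.10 and the build mm9. How reads were counted, with which annotation and strand setting, is not given in the sources used here. Symbols came from RefSeq (GRCm38.p6) by Entrez identifier, which matched 21615 of 21761 identifiers. Transcript and coding lengths came from GENCODE M21 (coding length in place of RefSeq protein length).

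The main test was edgeR 4.0.16 in R 4.3.3 (quasi-likelihood F test, TMM scaling, filterByExpr, group as the single term, all 6 libraries), with Benjamini-Hochberg adjustment over 12807 genes. SEs were taken as |log2 fold change| over √F, and intervals used the moderated degrees of freedom. Alternatives used DESeq2 1.42.0, limma 3.58.1, other scalings and filters, binomial thinning, a loess trend on length and GC content removed per library (span 0.4), the replicate number as a block, and each library left out. The fit was tested on simulated data. The members, lists and tests were chosen with earlier results of these data known. All members are named, and for each related list the 2 most abundant genes and the 2 of lowest p; Apaf1, scarce or undetected genes, and genes called by DESeq2 are named besides. Precision was limited by 3 libraries per group. The p-values of the main test set each difference against the spread between these libraries, which edgeR moderates with information from all tested genes. Libraries of a group differed far beyond counting noise (chi-square at least 61.0 per degree of freedom), so none was counted as the same library sequenced again. This does not show that the pools came from separate mice. Some marker genes are not reported here.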

Additional observations from a re-analysis of the deposited data

How the results depend on the processing

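In the BCL2 family 0 members were called at an adjusted p under 0.05 under every alternative run. At an adjusted p under 0.1 the main edgeR test also called 0. DESeq2 gave Mcl1 an adjusted p of 0.0674, which is under 0.1. The directions of Mcl1, Bax, Bak1 and Bad held in all 16 alternatives each. Leaving out 1 library turned 7 small values of the other members. These gave −0.52 to 0.00618 for Bcl2 (without IMP1 2 and IMP1 3), −0.31 to 0.34 for Bcl2l1 (without IMP1 1 and IMP1 2), −0.98 to 0.00154 for Bcl2l11 (without IMP1 2 and IMP1 3), −0.16 to 0.35 for Bid (without Control 3 and Control 2, with −0.06 without IMP1 1) and −1.06 to 0.13 for Bbc3 (without IMP1 1 and IMP1 3, with 0.06 without Control 2). Pmaip1 was tested in 3 alternatives, at −3.76 to −3.17 with adjusted p of at least 0.579.

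The counts of all genes called moved more. Against 9 higher and 18 lower, DESeq2 called 304 and 390, limma-voom 1 and 10, the CPM filter of 1 in all libraries 59 and 86, and an adjusted p under 0.1 93 and 138. Lower calls were 36 with the newer edgeR settings, 7 without TMM and 6 after removal of the length and GC trend, with 9 and 6 higher under the last 2. Leaving out single libraries left 0 to 2 higher and 0 to 1 lower calls. In the related lists, DESeq2 called 6 genes and the CPM filter 1 (Usp9x), a set of alternatives added after the data were seen. By coding length, the pro-survival share was 41.5% in Control and 48.2% in IMP1 cells, against 27% and 35.8% by transcript length, and the effector share 18.7% and 14.9%, against 32% and 26.4%.

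With the replicate number as a block, 1 gene was called higher and 3 lower, and 0 family members, of which 1 in place of 2 had an unadjusted p under 0.05. Deviations of same-numbered libraries correlated at 0.0149, 0.0310 and −0.00831 across genes, which gave no sign of pairing. With 3 libraries per group this cannot exclude a pairing, and the labels state none. The correlation with the own number was the highest of 3 for Control 2 but not for Control 1 or Control 3.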
